A study of Mus musculus with 3 samples.

Results

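Gene expression was compared between 2 sorted populations of mouse mammary cells by bulk RNA sequencing, 1 library each. The CD36+ library came from cells sorted as CD36 positive and podoplanin (PDPN) negative, and the PDPN+ library from cells sorted as CD36 negative and PDPN positive. CD36 is a scavenger receptor that takes up fatty acids, and podoplanin is a mucin-like glycoprotein of the cell surface. All cells lay in a gate positive for the epithelial adhesion protein EpCAM and high for CD49f, the integrin alpha 6 chain. The labels call both populations PROCR+ mammary epithelial cells, and the titles give the CD36+ cells as Cdh5+ and the PDPN+ cells as Cdh5-. The titles give the remaining library, negative for CD36 and PDPN and called double-negative here, as Cdh5+ too. It entered the scaling, and its values stand beside the others without a comparison of its own. No treatment is given, and neither the strain, the age of the mice nor the number of mice or cells behind a library is given in the sources used here.

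The members are the protein-coding genes with at least 40 CPM (counts scaled to a common library size) in the CD36+ or the PDPN+ library after TMM scaling, a scaling that assumes that most genes do not differ. They numbered 4844, of 21786 annotated protein-coding genes and 52661 gene identifiers in each table. Of them, 2800 reached 40 CPM in both libraries, 3782 did so for CD36+ and 3862 for PDPN+. The lowest member was Speer4e with 40.02 CPM in its higher library, and the highest gene outside was Lmo7 with 39.98. The members held 86.4% of the counts of the CD36+ library and 82.4% of those of the PDPN+ library. Total estimated counts were 67675778 and 63871266, and 51138993 in the double-negative library. With 1 library a side no test between populations exists, so each fold describes these libraries only and carries an exact 95% counting interval in parentheses. Such an interval covers counting error and no biological or technical replicate error. Where 3 levels follow a gene, they are those of the CD36+, PDPN+ and double-negative libraries in that order.

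The mammary gland has a bilayered epithelium of inner luminal and outer basal cells, the latter with keratin filaments, a laminin-rich basement membrane contact and smooth muscle contractile proteins. The vessels that run through its stroma are lined by endothelial cells, which hold together through their own cadherin, respond to VEGF and angiopoietin, and recruit leukocytes with selectins. Gene families often have members for each of these tissues, so a family's total can hide an exchange of members. Interferons raise large families of GTPases that attack vacuoles of intracellular microbes.

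Markers of the labelled cell type were low in the CD36+ library. The 7 epithelial markers (Epcam, Cdh1, Krt5, Krt14, Krt8, Krt18 and Trp63) summed to 323 CPM for CD36+, where 3 of them reached 40 CPM, and to 4801 CPM for PDPN+, where all 7 did. The 7 endothelial markers (Pecam1, Cdh5, Kdr, Tek, Emcn, Egfl7 and Esam) summed to 4332 CPM and 103 CPM, with 7 and 1 at 40 CPM. None of 7 leukocyte markers reached 40 CPM in any library, their sums were 13.6, 8.88 and 5.27 CPM, and Laptm5 and Cd3e had 0 counts in the CD36+ library. The 6 fibroblast markers summed to 116, 611 and 61.1 CPM, the 4 pericyte markers to 258, 63.2 and 164 CPM, of which Rgs5 gave 241, 51.9 and 164 CPM. The 5 erythroid markers summed to 106, 0.0135 and 0 CPM. The part of these cell types in the gene results was not tested. In bulk samples fewer cells of a type and less RNA per cell cannot be told apart.

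Most genes had close levels in both libraries. Of the 4844 genes, 2596 were within 2-fold (53.6%), 680 were higher by 4-fold or more in the CD36+ library (14%) and 549 lower by as much (11.3%), so 1229 stood at least 4-fold apart (25.4%). These shares are the background for every family below, where "apart" means at least 4-fold. At 16-fold the numbers were 313 higher (6.46%) and 246 lower (5.08%). The median log2 ratio was 0.07, with a 5th percentile of -4.02 and a 95th of 4.75. No counts were found for 39 genes in the PDPN+ library and for 24 in the CD36+ library, although each had at least 40 CPM in the other. The balance of higher and lower genes depended on the scaling. Total counts gave 509 higher and 788 lower, upper quartile factors 802 and 429, and the deposited TPM values 531 and 713. By TPM, 525 of the 680 higher genes and 528 of the 549 lower genes were still at least 4-fold apart, and 0 changed direction. Of the 184 genes printed with values below that were at least 4-fold apart, TPM took 7 under 4-fold and moved the ratio of 76 by over 1.5 times, total counts took 7 under 4-fold and upper quartile factors 1.

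**Figure D1:**
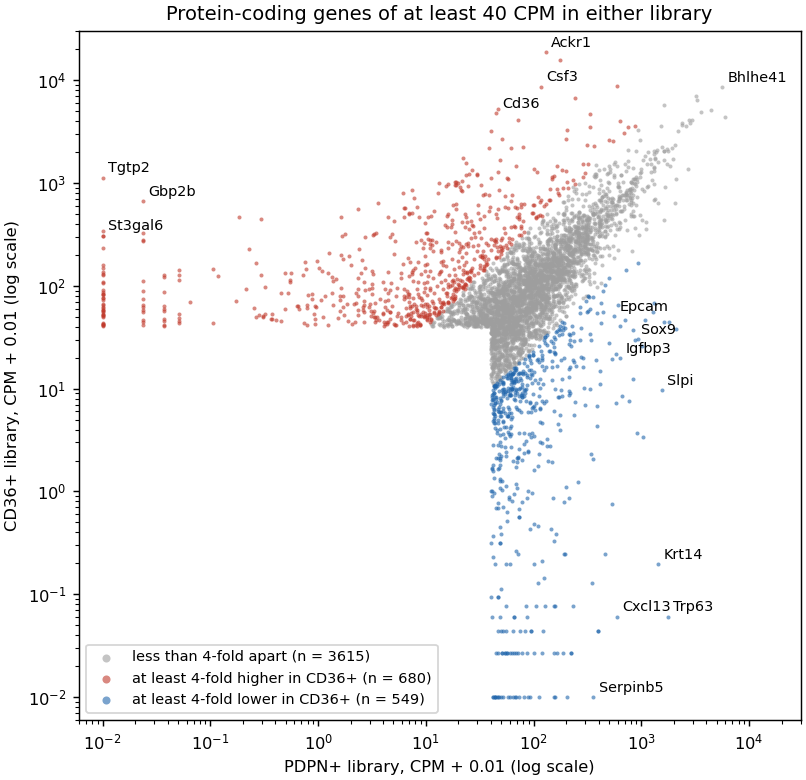
Level of each of the 4844 protein-coding genes in the PDPN+ library (x axis) and the CD36+ library (y axis), in CPM with 0.01 added, both axes on a log scale; each point is 1 gene of 1 library a side. Red points (680) are at least 4-fold higher and blue points (549) lower by 4-fold or more in the CD36+ library, and the vertical and horizontal lines of points at the edges are genes with 0 to a few counts in the other library.

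The higher genes held more counts than the lower ones. Together the 680 higher genes held 25.4% of the counts of the CD36+ library, with a median of 129 CPM there. The 549 lower genes held 9.93% of the counts of the PDPN+ library, with a median of 75.8 CPM. Among the 1826 genes with 40 to 80 CPM in their higher library, 12.6% were higher and 15.8% lower. Among the 116 genes of 1280 CPM or more, 31% were higher and 6.9% lower. The share of higher genes was 20.6% to 31% in the 3 bins from 320 CPM upwards and 11.7% to 12.6% in the 3 bins below. By effective transcript length, genes under 500 bases had 9.88% higher and 8.06% lower, and genes of 4000 bases or more 19.7% and 20.7%.

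**Figure D2:**
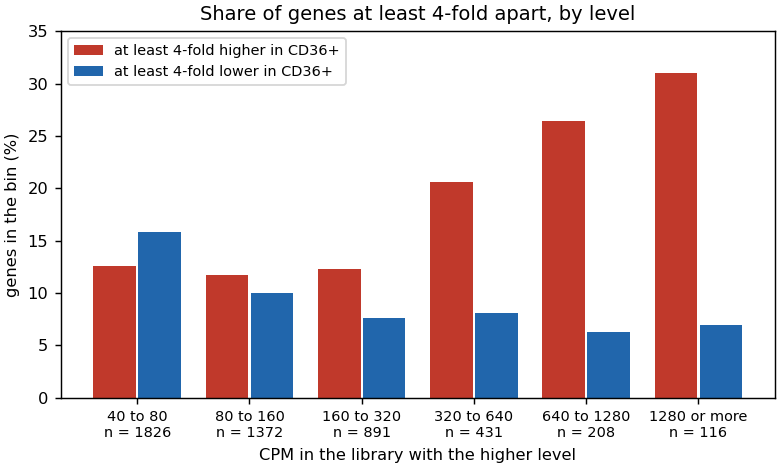
Share of genes (y axis, percent of the genes in the bin) at least 4-fold higher (red) or lower (blue) for CD36+ than for PDPN+, by CPM in the higher of both libraries (x axis, 6 bins with the number of genes under each). The red bars go from 12.6% in the lowest bin to 31% in the highest, and the blue bars from 15.8% to 6.9%.

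Of the genes at least 4-fold higher, those with most counts after the venular genes Ackr1 and Selp were Tm4sf1, Csf3 and Emp1. Tm4sf1, a membrane protein of endothelial filopodia, stood at 8759.95, 589 and 6535 CPM, 14.9-fold higher (14.7 to 15.02). Csf3, the cytokine that drives neutrophil production, stood at 8621, 116 and 4493 CPM, 74.2-fold higher (72.7 to 75.9). Emp1, a tetraspan protein of the PMP22 family, stood at 6693, 243 and 3564 CPM, 27.5-fold higher (27.1 to 27.9). These 3 genes were also high in the double-negative library. Of the genes at least 4-fold lower, Sfn, an epithelial adaptor protein, stood at 38.1, 2108 and 213 CPM, and Palld, an actin-bundling scaffold, at 44.3, 1805 and 155 CPM. The heparan sulfate proteoglycan Sdc4 stood at 44.4, 1606 and 99.5 CPM and the secreted protease inhibitor Slpi at 9.68, 1541 and 142 CPM, 159-fold lower (147 to 173). The secreted genes Crispld2 and Chil1 stood at 25.9, 1010.1 and 17.1 CPM and at 30.7, 935 and 38.7 CPM. The Wnt inhibitor Wif1 stood at 221 CPM in the PDPN+ library and had 1 count in the CD36+ library.

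Sets of housekeeping genes, most of them for subunits of the same machinery, served as a yardstick for the spread between these libraries. The sets also include genes grouped by function, such as the hnRNP genes and aminoacyl-tRNA synthetases. Housekeeping sets were likely to hold few members apart, so their share describes them and was not a test. In 20 such sets with 361 members, among them ribosome, proteasome, respiratory chain and spliceosome subunits, 307 members (85%) were within 2-fold, and 8 (2.22%) were apart, against 25.4% of all genes. Their log2 ratios had a median of 0.15 and an SD of 0.91 across genes, which is no replicate error. All 80 cytosolic ribosomal protein genes and all 7 chaperonin CCT genes at 40 CPM stayed less than 4-fold apart. Of the 8 exceptions, 6 had under 80 CPM in their higher library, where 93 members lay. Psmb8, a catalytic subunit that interferon swaps into the proteasome, stood at 273, 19.1 and 325 CPM, 14.3-fold higher (13.5 to 15.1). The replication helicase subunit Mcm3 had 2 counts in the PDPN+ library, against 41.6 CPM for CD36+ and 0.0594 CPM for the double-negative library. The splicing-related Hnrnpul2 stood at 3.50, 48.3 and 0.178 CPM. The proton pump subunit Atp6v0a2 stood at 10.0001, 62.9 and 1.86 CPM. The other 4, Ndufa11, Cops3, Mrps12 and Mrpl43, were between 4.60 and 5.34-fold lower in the CD36+ library, and Ndufa11 was under 4-fold with upper quartile factors, at -1.93 on the log2 scale.

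In 119 gene families defined by their symbols, with 809 members at 40 CPM, differences were more common than in the subunit sets. Of these members, 212 were at least 4-fold higher (26.2%) and 165 at least 4-fold lower (20.4%), so 46.6% were apart, and 31.4% were within 2-fold. The families were chosen with earlier results of these libraries known and lean towards cell surface, immune and regulatory genes, so this share describes them and is not support for a difference. Among 95 families with at least 3 members at 40 CPM, 50 had members apart in both directions. In 4 families all members were higher in the CD36+ library, in 1 all were lower, and in 3 none was apart.

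**Figure D3:**
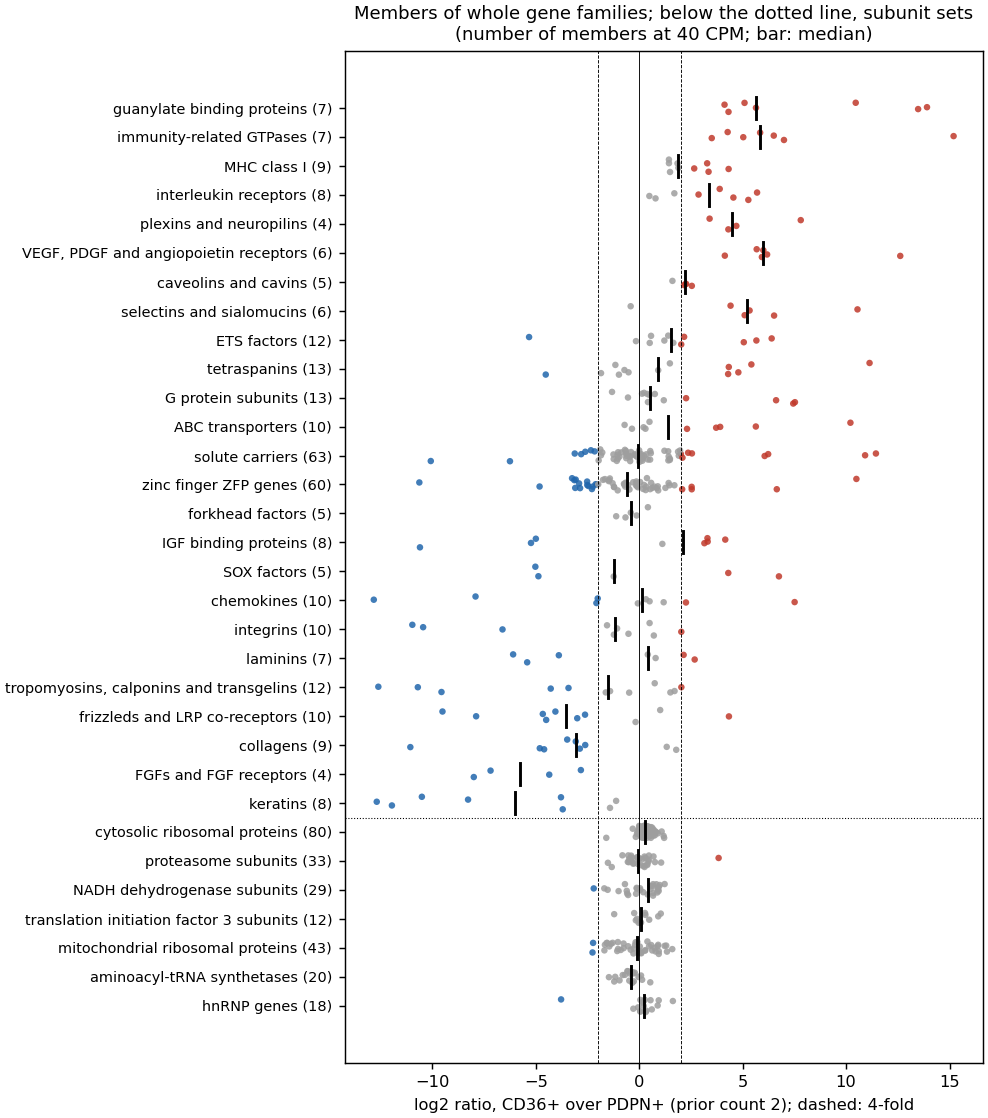
Log2 ratio of the CD36+ over the PDPN+ library (x axis) for each member at 40 CPM of 25 gene families and, below the dotted line, of 7 subunit sets (y axis, number of members in parentheses); black bars are medians, dashed lines mark 4-fold, red points are at least 4-fold higher and blue points lower by 4-fold or more in the CD36+ library. The guanylate binding proteins and immunity-related GTPases lie wholly to the right of the upper dashed line, the FGFs and FGF receptors wholly to the left of the lower one, and the ribosomal proteins between them.

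Both families of interferon-induced GTPases were among the 4 whose members were all higher. All 7 guanylate binding proteins at 40 CPM, of 10 annotated, were higher by 4-fold or more in the CD36+ library, and their median log2 ratio was 5.64. All 7 immunity-related GTPases, of 9 annotated, were also higher, with a median of 5.84, against 14% of all genes. Upstream sequences of 5 of them are shown because the members moved together and because interferon acts on such genes through short elements before their start. The interferon-stimulated response element core (ISRE core) was searched as GAAANNGAAA on either strand, and the gamma-activated site (GAS) as TTCNNNGAA, which reads the same on both strands. The 250 bases before the start were taken from RefSeq on GRCm38.p6, and 10 of the 14 GTPase genes matched that table with 11 promoters. Matches are in capitals. Of the 11 windows 6 hold no exon of GENCODE M21, and the 5 of these with a match are printed. The other one, that of Ifi47, held no match. They lie at chr11:58199306-58199555 (plus strand) for Igtp, chr11:58214727-58214976 (plus) for Irgm2, chr11:49064213-49064462 (minus) for Tgtp2, chr3:142530086-142530335 (plus) for Gbp7 and chr3:142594597-142594846 (plus) for Gbp2b.
Igtp: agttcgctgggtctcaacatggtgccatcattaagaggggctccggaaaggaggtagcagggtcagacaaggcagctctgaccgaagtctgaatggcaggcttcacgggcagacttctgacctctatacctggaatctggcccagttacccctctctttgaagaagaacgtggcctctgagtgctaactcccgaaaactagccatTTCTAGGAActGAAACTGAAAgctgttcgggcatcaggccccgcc
Irgm2: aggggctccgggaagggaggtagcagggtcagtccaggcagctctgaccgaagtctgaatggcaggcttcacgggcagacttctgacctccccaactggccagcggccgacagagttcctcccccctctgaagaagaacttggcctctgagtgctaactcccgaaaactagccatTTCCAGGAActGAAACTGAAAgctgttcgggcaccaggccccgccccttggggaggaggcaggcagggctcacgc
Tgtp2: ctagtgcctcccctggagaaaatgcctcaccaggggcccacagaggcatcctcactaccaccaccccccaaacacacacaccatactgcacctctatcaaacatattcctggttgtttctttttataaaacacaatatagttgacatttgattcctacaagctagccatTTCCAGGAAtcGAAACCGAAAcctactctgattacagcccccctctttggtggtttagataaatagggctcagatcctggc
Gbp7: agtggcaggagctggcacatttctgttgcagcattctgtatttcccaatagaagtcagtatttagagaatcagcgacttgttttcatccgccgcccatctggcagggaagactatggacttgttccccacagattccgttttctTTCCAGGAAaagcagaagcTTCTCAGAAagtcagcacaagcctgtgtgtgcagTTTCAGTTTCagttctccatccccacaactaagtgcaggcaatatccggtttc
Gbp2b: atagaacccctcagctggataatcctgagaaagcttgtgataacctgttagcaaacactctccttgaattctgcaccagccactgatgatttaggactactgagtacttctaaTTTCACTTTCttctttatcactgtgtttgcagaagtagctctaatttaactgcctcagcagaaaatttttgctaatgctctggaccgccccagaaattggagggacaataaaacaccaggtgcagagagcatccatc

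In Igtp, Irgm2 and Tgtp2 a GAS match (TTCTAGGAA in Igtp, TTCCAGGAA in the others) stood directly before an ISRE core match. The ISRE core match began at -34 from the start in Igtp, at -64 in Irgm2 and at -70 in Tgtp2. For Irgm2, Tgtp2 and Gbp7 the 20 bases after the RefSeq start were not found in a GENCODE M21 transcript, so positions there are relative to the RefSeq start alone. Gbp7 held 2 GAS matches and 1 ISRE core match, and Gbp2b 1 ISRE core match at -137. Of the 11 GTPase promoters, 9 held an ISRE core match (81.8%) and 5 a GAS match (45.5%). Among all 32851 promoters of that table the shares were 2.98% and 7.02%. Of the genes higher by 4-fold or more in the CD36+ library with a promoter there, 40 of 532 held an ISRE core match (7.52%), of those at least 4-fold lower 17 of 407 (4.18%), and of those within 2-fold 59 of 2054 (2.87%). The GAS shares of the same groups were 8.83%, 6.14% and 6.82%. In these groups a gene counted if any of its promoters held a match, whereas the shares before them count promoters. The 532 higher genes include the 10 GTPase genes with a promoter, 9 of which held an ISRE core match. A match describes the letters of the window and is neither a bound site nor a cause.

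Guanylate binding proteins assemble on the membranes of microbes and their vacuoles. Gbp4 stood at 998, 19.9 and 1563 CPM, 50.05-fold higher (47.5 to 52.7). Gbp2 stood at 606, 17.8 and 412 CPM, 34.1-fold higher (32.3 to 36.1), and Gbp7 at 417, 23.9 and 559 CPM, 17.4-fold higher (16.6 to 18.3). Gbp9 had 21 counts in the PDPN+ library and stood at 443, 0.284 and 538 CPM, 1562-fold higher (1021 to 2523). Gbp2b (670.4 CPM) had 1 count and Gbp3 (343 CPM) none in the PDPN+ library, while the double-negative library held 592 and 235 CPM. Gbp6 stood at 92.1, 4.60 and 319.8 CPM, but 74.2% of its 31-base words also occur in transcripts of other genes, so its own share is uncertain.

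Immunity-related GTPases include effectors that coat pathogen vacuoles and regulators that guard the cell's own membranes. Among the effectors, Iigp1 stood at 4118, 71.7 and 3335 CPM, 57.5-fold higher (55.9 to 59.1). Tgtp1 and Tgtp2 share 83.2% and 89.2% of their 31-base words with each other, so the split of reads between them is uncertain. Summed, they stood at 1704, 6.33 and 3141 CPM, 269-fold higher (246 to 295). Their 250 upstream bases were alike in 61.5% of aligned columns. Of the regulators, Irgm1 stood at 242, 21.3 and 165 CPM, 11.4-fold higher (10.8 to 11.98), Irgm2 at 140.2, 1.07 and 25.2 CPM, 131-fold higher (105 to 166), and Igtp at 325, 9.94 and 395 CPM, 32.7-fold higher (30.4 to 35.3). Ifi47 stood at 422, 21.8 and 319 CPM, 19.4-fold higher (18.4 to 20.4). Of the 14 genes Irgm1 had the smallest ratio.

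**Figure D4:**
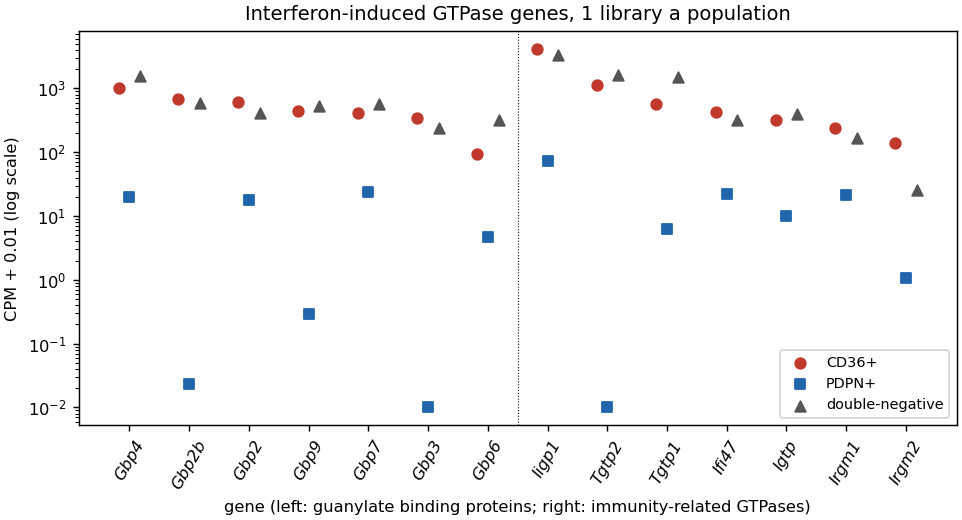
Level in CPM with 0.01 added (y axis, log scale) of the 7 guanylate binding protein genes (left of the dotted line) and 7 immunity-related GTPase genes (right) in the CD36+ (red circles), PDPN+ (blue squares) and double-negative (grey triangles) libraries, 1 library each. Every blue square lies below the red circle of its gene, and those of Gbp3 and Tgtp2 mark 0 counts.

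Other interferon-related families were higher in part. All 9 MHC class I genes, which present peptides to CD8 T cells, had positive log2 ratios (median 1.89), and 4 were apart. B2m, their shared light chain, stood at 4012, 636 and 4294 CPM, 6.31-fold higher (6.25 to 6.37). The classical heavy chains H2-K1 and H2-D1 were 2.70-fold and 2.71-fold higher. H2-Q2, H2-Q4, H2-Q6 and H2-Q7, which share sequence, summed to 334, 54.0 and 324 CPM, 6.19-fold higher (5.98 to 6.41). Of 12 TRIM genes, 3 were higher and 1 lower, with the interferon-induced Trim30a at 167, 0.257 and 10.9 CPM and the epithelial Trim29 at 1 count against 54.05 CPM. Of 5 PARP genes 3 were higher, Parp12, Parp14 and Parp9, and Parp8 was lower at 0.253, 68.5 and 13.6 CPM. Among 4 interferon regulatory factors none was at least 4-fold higher. The MHC class II genes Cd74 and H2-Ab1 stood at 59.4, 123 and 895 CPM and at 40.8, 47.4 and 259 CPM.

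Most interleukin receptor genes were higher in the CD36+ library, while cytokines were divided. Of 8 interleukin receptor genes at 40 CPM, 5 were higher and none was lower, with a median log2 ratio of 3.38. Il2rg, the common gamma chain that several interleukin receptors share, stood at 957, 18.4 and 1402 CPM, 51.9-fold higher (49.2 to 54.8). Csf2rb, the common beta chain of receptors for granulocyte and macrophage factors, stood at 944, 24.4 and 671 CPM, 38.7-fold higher (36.96 to 40.6). Il6st, the shared signal transducer of Il6 and related cytokines, stood at 1330.4, 182 and 1184 CPM, 7.29-fold higher (7.16 to 7.43), and Il1r1 at 393, 26.5 and 192 CPM. Osmr was 1.40-fold apart (1.38 to 1.43). Of the ligands, Il6 stood at 2233, 78.8 and 1522 CPM, 28.3-fold higher (27.6 to 29.1), whereas Il24 had 0 counts for CD36+ against 113 CPM. Chemokines were divided, with 2 of 10 higher and 4 lower. Cxcl9, which interferon gamma raises, stood at 306, 1.65 and 183 CPM, and the neutrophil chemokine Cxcl1 at 2595, 542 and 3111 CPM, 4.78-fold higher (4.73 to 4.84). By total counts and TPM the log2 ratio of Cxcl1 was 1.85 and 1.79, under 4-fold. Cxcl14, a chemokine of epithelia, stood at 3.73, 907 and 49.5 CPM, 243-fold lower (213 to 279). Among the TNF receptors, 4 of 9 were higher and 2 lower, the latter including the decoy receptor Tnfrsf11b with 0 counts against 88.2 CPM. Complement genes were divided 3 to 3 among 8, with the central component C3 at 4 counts against 84.2 CPM.

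The VEGF and FGF receptors lay on opposite sides. All 6 genes at 40 CPM of the set of VEGF, PDGF and angiopoietin receptors were higher in the CD36+ library, and their median log2 ratio was 5.96. They were Flt1, Kdr, Tek, Tie1, Kit and Ptprb, so no PDGF receptor was among them. Below that level, Pdgfra stood at 2.11, 5.56 and 0.139 CPM and Pdgfrb at 13.6, 3.62 and 0.0594 CPM, in opposite directions. Flt1 and Kdr, the VEGF receptors of blood vessels, stood at 986, 16.2 and 639.6 CPM and at 298, 4.64 and 223 CPM, 61.01-fold (57.6 to 64.7) and 64.3-fold (57.8 to 71.8) higher. Tie1 stood at 121, 2.33 and 70.6 CPM, and Ptprb, the phosphatase that restrains the angiopoietin receptor, at 501, 6.88 and 352 CPM, 72.9-fold higher (66.7 to 79.7). All 4 plexins and neuropilins at 40 CPM, the receptors and coreceptors of semaphorins and VEGF, were higher too (median 4.50). Nrp1 and Nrp2 stood at 262, 24.8 and 109.5 CPM and at 605, 30.5 and 309.9 CPM. Plxnd1 had 18 counts in the PDPN+ library and stood at 61.2, 0.243 and 38.9 CPM, 252-fold higher (159 to 425). The ligands of the VEGF family did not follow as a block. Angpt2, a ligand of the angiopoietin receptor that endothelium makes, stood at 279, 11.4 and 266 CPM, 24.4-fold higher (22.8 to 26.2), whereas Vegfa stood at 10.2, 57.7 and 7.59 CPM, 5.65-fold lower (5.19 to 6.16).

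The FGF family was the only one of the 95 whose members at 40 CPM were all lower in the CD36+ library, and the median log2 ratio of its 4 genes was -5.77. The receptors Fgfr1 and Fgfr2 stood at 8.31, 170.02 and 18.02 CPM and at 22.1, 157 and 54.5 CPM, 20.5-fold (18.7 to 22.4) and 7.07-fold (6.68 to 7.50) lower. The ligands Fgf1 and Fgf2 had 11 and 18 counts in the CD36+ library, against 55.1 and 48.7 CPM. In the EGF family a ligand and the receptor went opposite ways. Hbegf stood at 1235, 25.1 and 690.4 CPM, 49.3-fold higher (47.05 to 51.6). Egfr, the receptor that Hbegf binds, stood at 0.422, 92.7 and 0.396 CPM, 219-fold lower (149 to 339). Of the other ligands, Nrg1 stood at 6.11, 154 and 0.158 CPM, and Epgn had 0 counts for CD36+ against 46.04 CPM, at least 909-fold lower.

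Some receptors and ligands of the BMP, TGF-beta, Wnt and Notch pathways divided between the libraries. Of 9 BMP and TGF-beta receptor genes at 40 CPM, 2 were higher and 1 lower, so 33.3% were apart, against 25.4% of all genes. Of 5 ligand genes of these 2 pathways, 3 were higher and 2 lower. Acvrl1, the BMP receptor of endothelium, had 0 counts in the PDPN+ library against 61.2 CPM, and its coreceptor Eng stood at 311, 3.19 and 215 CPM, 97.4-fold higher (85.7 to 111). Bmpr1a had 0 counts for CD36+ against 67.1 CPM. Among the ligands, Bmp4 stood at 64.4, 0.784 and 13.1 CPM and Inhba, an activin chain, at 0.186, 102 and 20.8 CPM. Of 10 frizzled and LRP family genes, which receive Wnt and R-spondin signals, 7 were lower and 1 was higher. Fzd4 was the higher one at 169, 8.34 and 133 CPM, 20.3-fold higher (18.7 to 22.01). Lgr5, an R-spondin receptor known from epithelial stem cells, stood at 0.777, 191 and 1.37 CPM, 245-fold lower (184 to 335). Fzd3 stood at 0.236, 194 and 61.7 CPM and the coreceptor Lrp6 at 68.6, 422 and 85.03 CPM, 6.15-fold lower (5.95 to 6.36). No Wnt ligand of 19 reached 40 CPM. Notch1 stood at 79.9, 1.68 and 36.3 CPM and Notch2 at 8.36, 44.7 and 19.2 CPM, in opposite directions.

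Partners of a vasoactive receptor also went opposite ways. Calcrl, the receptor that needs a RAMP partner to bind adrenomedullin, stood at 923, 20.9 and 1159.9 CPM, 44.1-fold higher (41.97 to 46.5). Its partner Ramp2 stood at 49.4, 1.11 and 41.7 CPM, 44.6-fold higher (35.8 to 56.2), whereas Ramp3 had 0 counts for CD36+ against 92.6 CPM, at least 1828-fold lower. S1pr1, the sphingosine phosphate receptor of endothelium and lymphocytes, stood at 562, 2.34 and 506 CPM, 240.1-fold higher (207 to 280.4). Of 13 G protein subunit genes 4 were higher, none was lower and 7 were within 2-fold. The 3 with the largest ratios were the subunits Gngt2, Gnb4 and Gng11, at 145, 0.757 and 68.8 CPM, at 52.3, 0.270 and 50.6 CPM and at 322, 3.26 and 268 CPM.

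Some adhesion families held an endothelial and an epithelial member that went opposite ways, while others leaned to 1 side. Cdh5, named in the titles, stood at 465, 0.176 and 206 CPM, and Cdh1 and Cdh3, the cadherins of epithelium and of basal cells, at 0.861, 215 and 36.998 CPM and at 2.96, 120.4 and 12.2 CPM. Cdh13 was 3.11-fold higher (3.04 to 3.18). The gap junction gene Gja1, a connexin common to many cell types, stood at 6493, 3275 and 4902 CPM, 1.98-fold higher (1.97 to 1.99). Of 6 selectin and sialomucin genes 5 were higher, among them Podxl with 1 count in the PDPN+ library against 65.3 CPM, and Cd164 stood at 346, 461 and 336 CPM. Of 3 claudin genes, which act in tight junctions, 2 were higher, Cldn5 and Cldn12, and none was lower. Cldn5, a claudin of vessels, stood at 118, 5.92 and 32.9 CPM, 19.9-fold higher (18.1 to 22.02). Cldn4 had a log2 ratio of 1.37, in the same direction. Jam2 stood at 796, 13.01 and 612 CPM, 61.2-fold higher (57.4 to 65.3), and Nectin1 at 5.93, 94.9 and 0.0396 CPM, 15.998-fold lower (14.4 to 17.9). Of 9 plakophilin and plakin genes, which anchor keratin to desmosomes and hemidesmosomes, 5 were lower and none was higher, with Pkp1 at 4 counts against 156 CPM.

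Basement membrane chains differed in direction within their families. Laminins are trimers of an alpha, a beta and a gamma chain. Lama4 and Lamb1, chains of vessel laminins, stood at 104, 16.2 and 40.1 CPM and at 163, 36.8 and 118 CPM, 6.42-fold (6.03 to 6.83) and 4.42-fold (4.24 to 4.62) higher. Lamc1 was 1.73-fold higher (1.67 to 1.79). The log2 ratio of Lama4, 2.68 here, was 0.90 by TPM, and that of Lamb1, 2.14 here, was 1.74 by total counts, both under 4-fold. Lama3 and Lamb3, chains of the laminin of epithelial hemidesmosomes, stood at 6.93, 297 and 0.436 CPM and at 0.828, 58.6 and 15.4 CPM, and both were lower by 4-fold or more in the CD36+ library. Of 9 collagen genes 7 were lower and none was at least 4-fold higher. The basement membrane chains Col4a1 and Col4a2 were 3.46-fold (3.34 to 3.57) and 2.51-fold (2.42 to 2.61) higher, while Col4a5, a chain of another type IV trimer, had 0 counts for CD36+ against 64.3 CPM. Col17a1, the transmembrane collagen of hemidesmosomes, stood at 9.02, 219 and 26.1 CPM, 24.3-fold lower (22.3 to 26.5), and the anchoring fibril collagen Col7a1 at 6.55, 48.1 and 4.10 CPM.

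Of 10 integrin genes, 3 were lower and 1 was higher. Itga8 had 0 counts and Itgb8 1 count in the CD36+ library, against 60.1 and 65.5 CPM, and the collagen receptor chain Itga2 stood at 0.963, 96.9 and 32.6 CPM, 101-fold lower (77.6 to 133). Itga5, the fibronectin receptor chain, was 4.10-fold higher (3.85 to 4.36), and its log2 ratio of 2.03 was 1.63 by total counts and 1.61 by TPM. Itgb1, the common partner of many alpha chains, was 1.44-fold lower (1.42 to 1.45). Matrix proteases differed in direction. Adamts9 and Adamts4, secreted proteases that cut proteoglycans, stood at 2691, 50.8 and 1595 CPM and at 839, 21.6 and 315 CPM, 52.99-fold (51.3 to 54.7) and 38.9-fold (36.99 to 40.9) higher. Timp2 and Timp3, inhibitors of such proteases, stood at 159, 14.4 and 92.8 CPM and at 1518, 285 and 689.8 CPM, and the log2 ratio of Timp3 was 2.41, or 1.86 by TPM. Mmp2, the only matrix metalloproteinase at 40 CPM of 22 annotated, was lower at 19.004, 119 and 24.995 CPM, 6.25-fold lower (5.87 to 6.66). Of 13 tetraspanins, which organise surface proteins, 5 were higher and 1 lower, with Tspan13 at 1116, 56.7 and 865 CPM, Tspan12 at 480.2, 11.2 and 197 CPM and Tspan3 at 46.8, 1073 and 161 CPM.

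Most keratins at 40 CPM were lower in the CD36+ library. Of 8 keratins at 40 CPM, of 49 annotated, 6 were lower and none was higher (median -6.03). Krt15 and Krt16 had 1 and 0 counts in the CD36+ library, against 186 and 43.7 CPM, and Krt23 stood at 20.1, 277 and 43.1 CPM. Krt16 shares 51.9% of its 31-base words with other genes, so its level is uncertain. The simple epithelial keratins Krt8 and Krt18 were 2.66-fold (2.59 to 2.73) and 2.17-fold (2.11 to 2.23) lower. Of 12 tropomyosin, calponin and related genes 5 were lower and 1 was higher. The higher one was Tmod3, which caps actin filaments, at 988, 241 and 910.2 CPM, 4.10-fold higher (4.03 to 4.17), and its log2 ratio of 2.04 was 1.63 by total counts and 1.53 by TPM. Cnn1, the smooth muscle calponin, stood at 0.135, 125 and 0.0792 CPM, 922-fold lower (468 to 2136), and Lmod1, which nucleates actin in smooth muscle, had 1 count against 78.2 CPM. Cald1, which binds actin and tropomyosin, stood at 67.6, 1313 and 149 CPM, 19.4-fold lower (18.8 to 20.04). The members Cnn3 and Tpm3, expressed outside muscle, were 2.84-fold (2.81 to 2.87) and 3.26-fold (3.20 to 3.33) higher. Of the actins, Actb and Actg1 were within 2-fold and the smooth muscle actin Acta2 was lower at 36.98, 829 and 38.4 CPM. All 5 caveolae genes had positive log2 ratios (median 2.23), with 4 at least 4-fold higher, among them Cavin2, 5.82-fold (5.65 to 6.01), and Cav1, 4.50-fold (4.41 to 4.58). The log2 ratio of Cav1, 2.17 here, was 1.76 by total counts and 1.46 by TPM.

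Transcription factor families held members of both libraries. Of 5 SOX genes at 40 CPM, Sox7 and Sox17, which act in vessel development, stood at 296, 2.72 and 153 CPM and at 74.3, 3.73 and 33.8 CPM, 109-fold (94.8 to 126) and 19.9-fold (17.6 to 22.6) higher. Sox9 and Sox10, known in mammary progenitors and neural crest, stood at 29.9, 879 and 57.7 CPM and at 1.96, 64.6 and 8.91 CPM, 29.4-fold (28.001 to 30.8) and 32.96-fold (27.4 to 39.97) lower. Of 12 ETS factors 5 were higher and 1 lower. Fli1, Ets1 and Erg, which bind endothelial enhancers, stood at 429.9, 5.06 and 204 CPM, at 965, 19.02 and 676 CPM and at 91.7, 2.73 and 108 CPM. Fli1 was 85.004-fold higher (76.8 to 94.4). Etv1 was the lower member at 0.997, 41.1 and 0.198 CPM, 41.3-fold lower (31.9 to 54.3). Mef2a was higher at 369, 34.6 and 143 CPM, 10.7-fold higher (10.3 to 11.1), whereas Runx1 and Runx2 stood at 8.46, 659 and 11.9 CPM and at 0.372, 49.8 and 12.97 CPM. Runx1 was 77.8-fold lower (71.3 to 85.2), with the PDPN+ library above both others.

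Smaller transcription factor families also divided. Zeb1 and Snai2, repressors of epithelial genes, were at opposite ends, Zeb1 at 318, 1.77 and 377 CPM and Snai2 with 4 counts for CD36+ against 104 CPM. Of the p53 family, Trp53 stood at 94.7, 83.4 and 95.1 CPM, while Trp63 had 3 counts for CD36+ against 1753 CPM. Of 11 nuclear receptors, Pparg, the fatty acid sensor of fat cells, had 0 counts in the PDPN+ library against 87.2 CPM, at least 2149-fold higher. Nr2f2, a factor of venous identity, stood at 407, 9.82 and 390.4 CPM, 41.5-fold higher (38.5 to 44.7). Gata3, a luminal factor, was the only GATA gene at 40 CPM, at 5.54, 236 and 4.73 CPM. Klf7 was the only one of 8 Kruppel-like factors apart, at 689, 137 and 498 CPM, 5.02-fold higher (4.91 to 5.13), and was 1.92 on the log2 scale by total counts, under 4-fold. The forkhead factors, with 5 members, and the EGR and NR4A factors, with 4, held none apart, and the clock-related repressor Bhlhe41 stood at 8548, 5572 and 6370.3 CPM, 1.53-fold higher (1.53 to 1.54).

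Water channels differed in direction, and solute carriers lay near the background. Aqp1, the water channel of capillaries, stood at 1582, 23.4 and 775 CPM, 67.7-fold higher (64.6 to 71.1). Aqp3 and Aqp9, channels that also pass glycerol, stood at 4.29, 384 and 11.1 CPM and at 0.777, 78.01 and 1.25 CPM, 89.4-fold (79.1 to 102) and 100.4-fold (75.2 to 137) lower. Of 63 solute carriers, 8 were higher (12.7%) and 7 lower (11.1%), close to the background of all genes. Among them the nucleoside transporter Slc28a2 and the bile acid carrier relative Slc10a6 had 0 counts in the PDPN+ library against 83.5 and 58.1 CPM, and the arginine transporter Slc7a2 stood at 1.93, 149 and 14.8 CPM. Of 10 ABC transporters 5 were higher and none was lower. The efflux pumps Abcb1a and Abcg2 stood at 148, 0.0947 and 82.8 CPM and at 1333, 26.8 and 826 CPM, and Abcb1b, the near relative of Abcb1a, was 1.28-fold apart (1.21 to 1.34).

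Lipid carriers and activating enzymes differed in direction. Fabp4, a fatty acid carrier of fat and endothelium, stood at 5286, 46.5 and 2119 CPM, 114-fold higher (109.9 to 118), and the retinol binding protein gene Rbp7 at 133, 0.554 and 58.4 CPM, 239.6-fold higher (176 to 334). Acsl4 and Acsl3, which activate long-chain fatty acids, stood at 56.3, 1292 and 216 CPM and at 30.5, 157 and 17.6 CPM. Acsl4 was 22.9-fold lower (22.2 to 23.8) and Acsl5 2.62-fold higher (2.53 to 2.73). Of 6 cholesterol synthesis genes 3 were lower and none was higher. Hsd17b7, Cyp51 and Sqle stood at 0.0845, 46.9 and 0.0990 CPM, at 1.18, 67.9 and 0.515 CPM and at 9.87, 84.1 and 19.6 CPM.

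Among the enzymes that decorate glycans, members were apart both ways in the sulfotransferases and the GalNAc and GlcNAc transferases. Of 4 sialyltransferases 3 were higher. St3gal4, which caps selectin ligands, had 23 counts in the PDPN+ library and stood at 97.1, 0.311 and 97.1 CPM, 312-fold higher (208 to 493). St8sia4, which builds polysialic acid, stood at 511, 7.37 and 602 CPM, 69.3-fold higher (63.7 to 75.6), and St3gal1 was 1.65-fold apart (1.58 to 1.72). Of 5 sulfotransferases 4 were higher, a count that includes Sult1a1, which is not a glycan enzyme. Hs3st1, which modifies heparan sulfate, was among the higher ones at 373, 17.1 and 194 CPM. Chst11, which sulfates chondroitin, was lower at 9.29, 51.7 and 8.50 CPM. Of 12 GalNAc, GlcNAc and related transferases 5 were higher and 3 lower. Galnt15 and Galnt3, which both start mucin-type chains, went in opposite directions. Galnt15 stood at 114, 0.541 and 47.8 CPM, whereas Galnt3 had 2 counts for CD36+ against 82.5 CPM. Fut2 had 2 counts in the PDPN+ library against 60.2 CPM, whereas Fut8 was 9.31-fold lower (8.37 to 10.4).

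The insulin-like growth factor genes were divided, with 4 of 8 members higher and 3 lower. Igfbp7 and Igfbp4, secreted binding proteins, stood at 849, 47.5 and 673 CPM and at 130.4, 13.1 and 55.1 CPM, 17.9-fold (17.3 to 18.5) and 9.92-fold (9.28 to 10.6) higher. Igf1 itself stood at 209, 23.6 and 25.1 CPM, with the CD36+ library above both others. Igfbp3 and Igfbp5 stood at 19.8, 633 and 51.5 CPM and at 11.03, 416 and 33.5 CPM, 32.002-fold (30.2 to 33.9) and 37.7-fold (34.9 to 40.8) lower, and Igfbp6 had 0 counts for CD36+ against 46.6 CPM. Summed over all annotated members the family stood at 1482 and 1278 CPM in the CD36+ and PDPN+ libraries, although 7 of its 8 members at 40 CPM were apart. The sums of the collagens were 548 and 1037 CPM, and those of the laminins 501 and 816 CPM.

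**Figure D5:**
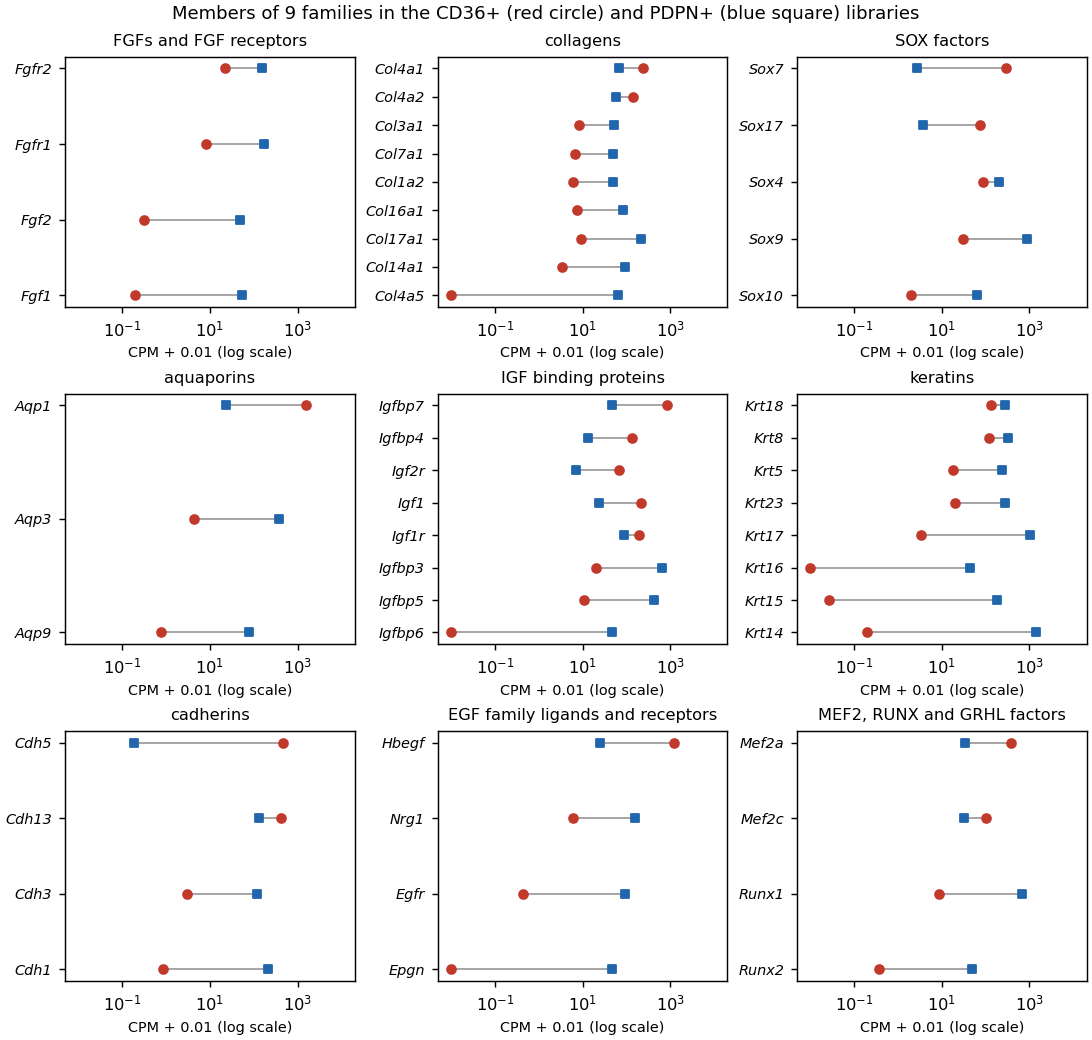
Level in CPM with 0.01 added (x axis, log scale) of each member at 40 CPM (y axis) of 9 families in the CD36+ (red circles) and PDPN+ (blue squares) libraries, 1 library each, with a grey line joining both values of a gene. Red circles lie right of the squares for Hbegf, Sox7, Aqp1, Igfbp7, Cdh5 and Mef2a and left of them for Egfr, Sox9, Aqp3, Igfbp3, Cdh1 and Runx1, while all 8 keratins and all 4 FGF family genes have the square to the right.

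Regulators of the actin cytoskeleton were divided as well. Of 6 ARHGAP genes at 40 CPM, whose products switch off small GTPases, 3 were higher and 2 lower. Arhgap31 stood at 328, 10.2 and 203 CPM, 32.3-fold higher (30.03 to 34.8), and Arhgap42, which acts in smooth muscle, at 0.557, 72.3 and 20.2 CPM, 129.8-fold lower (92.3 to 189). Rnd1 and Rnd3, atypical small GTPases that loosen actin fibres, went opposite ways at 390.5, 14.9 and 260.4 CPM and at 8.75, 211 and 49.5 CPM, while Cdc42 was 1.03-fold apart (1.02 to 1.05). Of 26 Rab GTPases, which direct vesicle traffic, 15 were within 2-fold, 4 were higher and 2 lower, so 23.1% were apart, close to the 25.4% of all genes. Of 20 DnaJ co-chaperones 14 were within 2-fold and 1 was apart (5%), and of 13 glycolysis enzymes 8 were within 2-fold and 2 were lower, Ldhb at 16.4, 119 and 28.2 CPM and Hk2 at 10.2, 74.7 and 0.178 CPM.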

How the data were processed

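Expression was measured in 3 libraries, 1 per sorted population, grouped by the labels of their surface markers. For every library the authors deposited estimated counts and TPM of each gene, made with Salmon 0.9.1 and the mm10 build, per the submitters' processing notes. Annotation release and strand setting were not given in the sources used here. Per the labels' protocols, 2 RNA kits, 2 library kits (low-input, or stranded with ribosomal RNA removed) and 2 instruments were used. Which served which library is not stated, so library chemistry and population cannot be told apart. TPM keeps no depth, and the deposited TPM entered only as an alternative to the counts.

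Estimated counts were rounded to whole numbers. Identifiers were matched to GENCODE M21 (52566 of 52661), and unmatched ones held at most 0.00811% of a library's counts. TMM factors came from edgeR 4.0.16 in R 4.3.3 over all 3 libraries, and log2 ratios used a prior count of 2. Intervals of folds are exact (Clopper-Pearson, 95%) and, like the floor of 3 counts behind each "at least", cover counting error only, since reads without molecular identifiers may be PCR copies. That floor was 0.0507 CPM in the CD36+ and 0.0406 CPM in the PDPN+ library. No replicate exists, so no test was made and no p-value is given. The ratio script was tested on simulated data. Python 3.11.15 with numpy 2.4.6, pandas 2.3.3, scipy 1.17.1, matplotlib 3.10.9 and Biopython 1.88 did the rest.

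Families were defined by a pattern on the symbol, so every annotated protein-coding member was counted. The members, families and lists were chosen with earlier results of these data known. Named genes came from the sort and titles, the 15 genes with most CPM and the 10 with the largest ratios (at least 200 CPM) among those apart in each direction, up to 3 members apart per direction and 1 within 2-fold in families of 3 or more, and all members of families of up to 8. Further genes named as partners or relatives, Abcb1b, Cnn3, Col4a1, Col4a2, Col4a5, Col7a1, Erg, Fut2, H2-D1, H2-K1, H2-Q2, H2-Q4, Lgr5, Lmod1, Nectin1, Slc10a6, Tpm3, were chosen after their values were seen. Some genes that the rule names are not reported here. Alternatives were other scalings, TPM with a pseudocount of 0.1, a prior count of 0.5 and other level minimums.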

Additional observations from a re-analysis of the deposited data

How the results depend on the processing

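Every value rests on 1 library a side, and counting intervals do not cover differences between mice, sorts or library kits. The genes higher and lower numbered 1289 and 1547 with at least 10 CPM in either library, 393 and 202 with at least 100 CPM, and 479 and 289 with a mean of both libraries of at least 40 CPM. The median log2 ratio of all genes, 0.07 in the report, was -0.43 by total counts, 0.42 by upper quartile factors, -0.39 by TPM, -0.052 with 10 CPM and 0.21 with 100 CPM. Scaling moved every log2 ratio alike, by -0.40 with total counts and 0.27 with upper quartile factors. Sign changes were screened only for families whose median was at least 4-fold from equal in the report. Smaller medians were not screened, and that of the cytosolic ribosomal proteins, 0.29, is smaller in size than the shift with total counts. Among the screened families, the MEF2, RUNX and GRHL factors changed sign (1.91 by upper quartile factors, 1.64 with 10 CPM and 1.64 with the mean). So did the BMP and TGF-beta ligands (-2.50 with 10 CPM and -8.88 with 100 CPM) and the fatty acid binding proteins (-2.51 with 10 CPM). The others were the protocadherins (-1.88 with 100 CPM and with the mean), the collagens (1.33 with 100 CPM) and the EGF family (0.48 with 100 CPM). Members enter or leave under such minimums. None of the 617 genes named by the rule that were at least 4-fold apart changed direction under any scaling, TPM or the smaller prior count. No paired analysis was possible because each population had 1 library, and no replicate could be left out for the same reason. Depth limits the genes with 0 to 3 counts in a library, whose ratios are bounds or given as counts.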

Other observations

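Further families, chosen after their values were seen, were looked at with the same rule. All 4 GIMAP GTPases at 40 CPM, known from lymphocyte survival, were higher by 4-fold or more in the CD36+ library, against 14% of all genes. Gimap6 stood at 1025, 19.1 and 993 CPM for CD36+, PDPN+ and double-negative, 53.6-fold higher (50.9 to 56.6). Gimap9 stood at 321, 4.88 and 181 CPM and Gimap4 at 133, 2.47 and 217 CPM. The leukocyte markers given in the report had no member at 40 CPM in any library. Of 4 genes of the IFI200 family, whose products sense DNA, 3 were higher. Ifi203 stood at 1234, 29.6 and 1161 CPM, 41.6-fold higher (39.9 to 43.5), and Mndal at 630.2, 18.8 and 542 CPM, 33.4-fold higher (31.7 to 35.3). Both phospholipid scramblases Plscr1 and Plscr2 were higher, at 256, 10.9 and 193 CPM and at 169, 0.744 and 64.7 CPM, and Plscr4 was 2.59-fold higher (2.46 to 2.74).

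Of 4 carbonic anhydrases, which interconvert carbon dioxide and bicarbonate, 3 were higher. Car4, a membrane-bound form of capillaries, had 0 counts in both other libraries against 50.5 CPM for CD36+. Car3 stood at 50.9, 7.33 and 0.139 CPM, and Car2 had 3 counts in the PDPN+ library against 127 CPM. Car2 was also found in the double-negative library at 79.6 CPM. Hba-a1 and Hba-a2, which share 75.4% and 92.6% of their 31-base words with each other, summed to 54.8 CPM for CD36+ and to 0 counts in the others, and the part of erythroid RNA in the carbonic anhydrase levels was not tested. Of 6 DOCK exchange factors 4 were higher, among them Dock6 at 53.2, 0.365 and 14.4 CPM, 146-fold higher (99.98 to 222). Of 4 RAP guanine exchange factors 3 were higher, with Rapgef5 at 379, 27.4 and 594 CPM, 13.8-fold higher (13.2 to 14.5), and Rapgef4, an exchange factor that cyclic AMP switches on, at 95.4, 1.62 and 42.4 CPM.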
